A study of Mus musculus with 4 samples.

Results

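The genes described here encode the phagocyte NADPH oxidase and its GTPase, namely Cybb, Cyba, Ncf1, Ncf4 and Rac2. Members were all probes of the deposited signal table whose annotated symbol was 1 of these 5, which gave 5 of the 16590 named genes on the array and 6 of its 25697 probes, 2 for Ncf1 and 1 for each other gene. The rule used gene symbols only and no measured value, although the genes were picked with earlier results of these data known. Spleen RNA came from 2 wild-type (WT) mice and 2 mice homozygous for a deletion of the first exon of Snd1 (KO), a gene for an RNA-binding protein with roles in transcription, and each RNA was hybridised to its own Illumina MouseRef-8 v2.0 bead array. All 4 were untreated females of strain C57BL/6N. The paper's methods give an age between 8 and 12 weeks for the spleen donors, and its figure of the array results gives 8 weeks. The deletion was made in stem cells of another strain and completed by crossing to mice with Cre under a ubiquitous promoter, so that every cell type of the KO spleen carried it, and the mice were backcrossed afterwards. RNA was taken from homogenised pieces of spleen, and n = 2 per group throughout.

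The phagocyte oxidase makes superoxide from oxygen with electrons of NADPH and is known for the respiratory burst with which neutrophils and macrophages kill ingested microbes. Cybb (gp91phox, Nox2) carries the electrons across the membrane and Cyba (p22phox) holds it there as its stable partner. In activated cells Ncf1 (p47phox, the organiser) and Ncf4 (p40phox, which binds a phosphoinositide of the phagosome) move from the cytosol to this pair, together with Rac2, a GTPase of blood cells that is needed in its GTP-bound form. Loss of one of the subunits causes chronic granulomatous disease in people. Cyba and Rac2 are also used outside phagocytes, among others in lymphocytes.

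Between 12396 and 12908 probes were above background on an array (detection p under 0.05), and the lowest signal so detected was 112.2 to 114.9. The targeted gene followed the labels. The Snd1 probe read 6.71 and 7.09 (log2 intensity) on the WT arrays. On the KO arrays it read 4.45 and 4.58 and was not above background on either, at least 3.87-fold lower than WT (adjusted p = 0.0869, limma). Cd79a of B cells and Cd3e of T cells, which fill the spleen, were above background on all arrays. Some genes listed as markers of other tissues differed between the libraries. Serpina1b of the liver list read 6.57 and 6.69 on the WT arrays and 10.24 and 9.90 on the KO arrays (adjusted p = 0.0403, limma, and 0.0531 at its second probe). Of the 7 other liver genes, 4 were above background on both KO arrays and on no WT array, so that they entered the test only through KO (among them Apoa1, at 7.16 and 5.63 in KO, and Ttr, at 7.67 and 6.12), and Alb and Fgb were above background on none. Exocrine pancreas genes (3 of 10 tested) had a summed normalized intensity of 1267 on KO replicate 1 and of 272 to 430 elsewhere. Of these Cela1 read 9.51 on KO replicate 1 and 7.69 to 8.52 elsewhere, and Cela3b 7.64 and 4.91 to 5.13. Cela3b, above background on 1 WT array, entered the test and the sum only through KO. Others, above background on 1 KO array only, were not tested and are not in the sum. Among them Cela2a read 11.44 on KO replicate 1 and 4.49 to 4.66 elsewhere, and Amy2a5 9.19 and 4.30 to 4.44. Prss2 was not above background on any array. Of the fat genes, above background in KO only, Adipoq read 9.69 on KO replicate 2 and 5.18 on KO replicate 1, and Lep 5.13 and 5.05. Car3, which was not tested, read 9.23 on KO replicate 2 and 4.33 to 4.70 elsewhere. Fabp4, Plin1 and Retn were not above background on any array. Erythroid genes set the 2 WT libraries apart, with sums of 56339 on WT replicate 1 and 27845 on WT replicate 2 against 40345 and 45471 on the KO arrays. Their part in the values below was not tested.

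Of the 6 oxidase probes, 4 were above background on all 4 arrays and were tested, and 2 were above background on none. In the normalized data no member passed the threshold (limma, adjusted p under 0.05), where 0.0160% of the 12493 tested probes passed. The KO mean was below the WT mean for Cyba, Rac2 and Ncf1, and almost equal to it for Ncf4. The median log2 difference over the 4 detected genes, KO minus WT, was -0.13, beside -0.0054 over all tested probes, and it moved to -0.35 without WT replicate 1 and to 0.035 without WT replicate 2. The KO mean was lower for 3 of them and higher for 1, against 51.1% and 48.9% of all tested probes. In 2 of the 4, Cyba and Rac2, the groups did not overlap, as in 37.9% of the tested probes. At an unadjusted p under 0.05, 1 member was lower and 0 were higher, where 2.78% of the tested probes were lower and 3.31% higher. That member was Cyba. Its unadjusted limma p was above 0.05 with median scaling (0.0514). Under the other moderated settings on all 4 arrays it ran from 0.0073 (without background correction) to 0.0484 (replicate number as a block). None of these settings brought its adjusted p under 0.05. The unmoderated test put 1 member and 6.76% of all tested probes under an unadjusted 0.05, and 0 of either under the adjusted threshold.

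**Figure D1:**
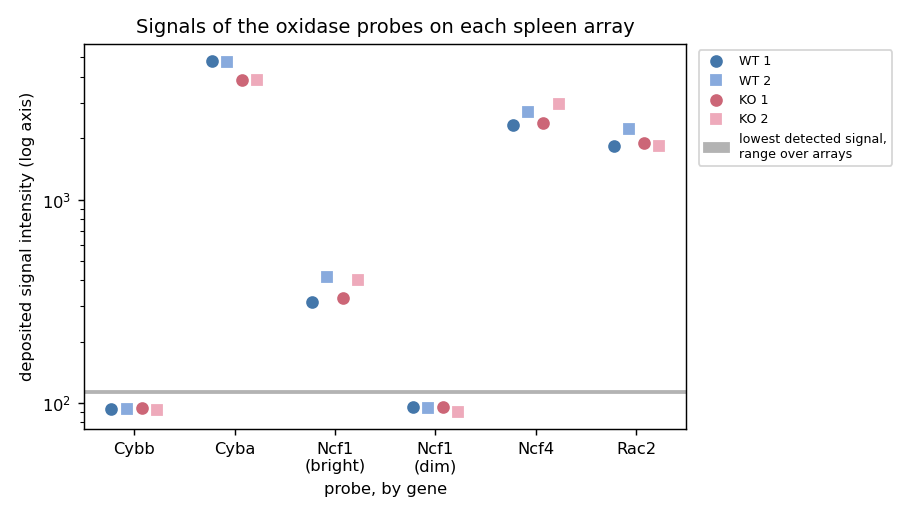
Deposited signal intensity (log axis) of the 6 oxidase probes on each of the 4 spleen arrays, with the range of the lowest detected signal in grey. The Cybb probe and the dim Ncf1 probe lie below this range on every array, between 90.3 and 95.3, and the Cyba signals of the KO arrays lie below those of the WT arrays.

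The electron-carrying subunit could not be measured. The Cybb probe gave signals of 93.7 and 93.5 on the WT arrays. Those of the KO arrays were 94.3 and 91.9, and all 4 lay under the lowest detected signal, with detection p between 0.672 and 0.838. Both groups thus have only an upper bound, and no fold was computed for Cybb. This is no rare outcome for a probe on these arrays, because 45.3% of all probes were above background on no array. The place of the probe on the transcript was not analysed here.

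The membrane partner Cyba was lower on both KO arrays. Its signals were 4775.5 and 4772.7 in WT and 3878.3 and 3875.1 in KO, a mean 18.8% lower in KO before any normalization. After normalization both WT arrays stood at 12.23 and 12.26 on the log2 scale, and the KO arrays at 11.90 and 11.84. The groups did not overlap, and the lowest WT value stood 0.34 above the highest KO value, more than the distance between the 2 arrays of either group.

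The Cyba difference was -0.38 ± 0.14 (log2, SE, n = 2 per group), 1.30-fold lower in KO, with a 95% interval from -0.73 to -0.02. The adjusted p was 0.771 and the unadjusted p 0.0408 (limma), so Cyba did not pass. 6.12% of the tested probes had a lower difference than Cyba, and 18.5% had both KO values under both WT values. The spread of Cyba within groups was itself small, a pooled SD of 0.032, and only 3.25% of the tested probes had a smaller one. With that spread alone the SE was 0.032 and the unadjusted p 0.00710, still not past the threshold over all probes (adjusted p = 0.645). In RNA from whole spleen, fewer cells that express a gene and less of its RNA per cell cannot be told apart. Genes of neutrophil precursor granules had lower means in KO too (median -1.56 over the 9 above background in both groups, and -0.76 without KO replicate 2), and their part in the Cyba value was not tested.

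Rac2, the GTPase that switches the complex on in blood cells, had a slightly lower mean in KO. Its signals before normalization were 1830 and 2218.1 in WT and 1888.5 and 1826 in KO, so that the groups overlapped there. After normalization the WT arrays gave 10.81 and 11.10 on the log2 scale and the KO arrays 10.80 and 10.71. WT replicate 2 alone stood high, and the groups were parted by only 0.014, the distance of WT replicate 1 from KO replicate 1. The difference was -0.20 ± 0.17 (adjusted p = 0.821, limma), with an interval from -0.62 to 0.23, or 0.649-fold to 1.17-fold of WT. Without WT replicate 2 it was -0.057 and without WT replicate 1 -0.34.

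The 2 probes of Ncf1, the organiser subunit, disagreed in whether they saw the transcript at all. The brighter one stood at 7.86 and 8.43 (log2) on the WT arrays and at 7.91 and 8.24 on the KO arrays. The other lay between 4.34 and 4.42 on all arrays, not above background on any. Both are annotated to the same RefSeq transcript. Such a split was common, since of 4776 genes with several probes 1354 (28.4%) had a probe above background on all arrays and another on none. The groups of the brighter probe overlapped, with a difference of -0.067 ± 0.25 and an interval from -0.71 to 0.57 (adjusted p = 0.969, limma). WT replicate 1 and KO replicate 1 were low and the other pair of arrays high, and leaving out an array moved the difference from -0.36 (without WT replicate 1) to 0.22 (without WT replicate 2), so that no direction could be given.

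Ncf4, the phosphoinositide-binding subunit, had nearly equal means. It stood at 11.17 and 11.42 (log2) in the WT spleens and at 11.17 and 11.43 in the KO spleens, so that each group held a lower and a higher array and the groups overlapped fully. The difference was 0.002 ± 0.18, with an interval from -0.45 to 0.46 (adjusted p = 0.999, limma), or 0.731-fold to 1.37-fold of WT. As with Ncf1, the first replicate of each group was the lower one, a pattern that 34.9% of the tested probes shared.

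**Figure D2:**
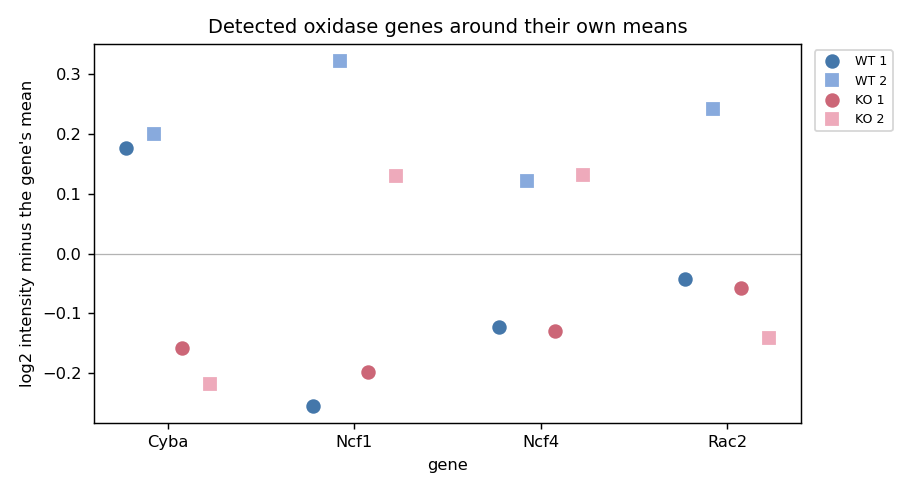
Log2 intensity of the 4 detected oxidase genes on each array, less the mean of the gene over the 4 arrays. The KO arrays lie below the WT arrays for Cyba with a gap of 0.34 and for Rac2 with a gap of 0.014, while for Ncf1 and Ncf4 the values of the groups mix.

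The members did not share one pattern over the arrays. As a measure of likeness, the Euclidean distance between mean-centred log2 profiles over the 4 arrays was taken, and 11763 tested probes of other genes were ranked by it for each member. The nearest genes were Mutyh, Nfrkb and Mrpl23 for Cyba, Pop4, Arfrp1 and Nsd1 for Ncf1, Mark3, Slc22a5 and Ap5z1 for Ncf4, and Emb, Scyl3 and Usp9x for Rac2, all at distances of 0.0160 to 0.0392. None of these is an oxidase gene. Between members the distances ran from 0.250 between Ncf1 and Ncf4 to 0.570 between Cyba and Ncf1. The nearest genes were picked as the smallest of 11763 distances, so larger distances between members say little. Ncf4 ranked 722 of 11763 by its distance from Ncf1, and Ncf1 ranked 2626 by its distance from Ncf4. Over 4 arrays such a rank is a description only.

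The 5 genes lie on chromosomes X (Cybb), 8 (Cyba), 5 (Ncf1) and 15 (Ncf4 and Rac2), and none on chromosome 6 with Snd1. Between Ncf4 and Rac2 the RefSeq annotation places 10 protein-coding genes, of which 4 were tested, namely Csf2rb2, Csf2rb, Tst and Tmprss6, 2 higher and 2 lower in KO (log2 differences -0.33 to 0.17, 0 past the threshold and 0 under an unadjusted 0.05 by limma). These neighbours were looked up after the member values were seen.

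Of the genes whose products work with the oxidase none passed. Of 7 listed partners 4 were tested, 3 lower and 1 higher in KO (median -0.26, and -0.42 without WT replicate 1 and -0.11 without WT replicate 2). Arhgdia was not analysed here, and the Rap1a probe was not above background on any array. Hvcn1 encodes the proton channel that carries off the charge left by the oxidase and is abundant in B cells. Its brighter probe read 11.37 and 11.56 in WT and 10.76 and 11.14 in KO, a difference of -0.52 ± 0.19 (adjusted p = 0.771, limma), and the second probe, whose groups overlapped, gave -0.25. Both KO arrays lay under both WT arrays for the brighter probe, by a margin of less than the distance between the 2 KO arrays. Arhgdib, the inhibitor that keeps Rac2 in the cytosol of blood cells, gave -0.33 ± 0.18, also with groups that did not overlap, and its second probe was not above background. Cybc1, the chaperone needed for stable Cybb and Cyba protein, gave -0.20 ± 0.19 with overlapping groups.

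**Figure D3:**
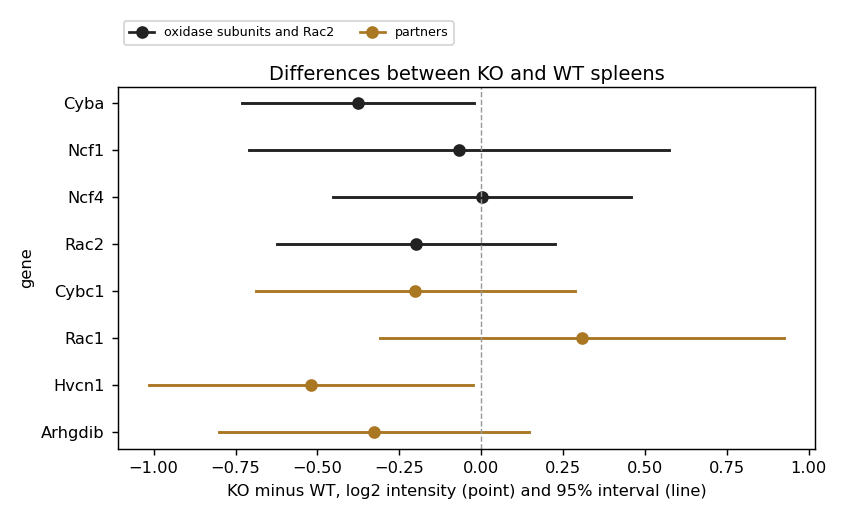
Log2 difference, KO minus WT, of the detected oxidase genes (black) and of their tested partners (brown), as points with 95% intervals from limma. The intervals of Cyba and Hvcn1 end just below 0, at -0.02 and -0.03, and all others span 0.

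Rac1, the widely expressed relative of Rac2, had a higher mean in KO. It read 7.82 and 8.34 in WT and 8.21 and 8.57 in KO, a difference of 0.31 ± 0.24 with overlapping groups (adjusted p = 0.809, limma). Of the exchange factors that load Rac with GTP, 5 of 7 were tested (median 0.01), with Vav3 at 0.22, Tiam1 at 0.27 and Vav1, the form of blood cells, at -0.16.

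The kinases that phosphorylate the cytosolic subunits or act upstream of them had a median near 0. Of 17 listed, 8 were tested, 3 higher and 5 lower (median -0.01). Prkcb, a protein kinase C of B cells and neutrophils that acts on Ncf1, gave -0.20 and Pik3cg, a lipid kinase under chemoattractant receptors, -0.09. Fgr, a Src-family kinase of myeloid cells, stood apart with 7.12 and 7.93 in WT and 7.02 and 4.72 in KO. KO replicate 2 alone was far down and not above background, so that Fgr entered the test only through WT. KO replicate 1 lay just under WT replicate 1. The difference of -1.65 ± 0.78 did not pass (adjusted p = 0.771, limma).

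Other NADPH oxidases were mostly not above background. Of 9 listed, 6 had probes and only Noxo1, an organiser like Ncf1, was tested, with a difference of 0.10 and overlapping groups, and of -0.16 at its second probe. Nox1, Nox3, Nox4, Noxa1 and Duox2 were above background on no array.

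Supply of NADPH and removal of superoxide and peroxide gave list medians near 0. Of 9 genes that supply NADPH 6 were tested, 3 higher and 3 lower (median -0.02), among them Idh1 at -0.24, Pgls of the pentose phosphate pathway at 0.24 and Idh2 at 0.22. Of 20 removal genes 16 were tested, 6 higher and 10 lower (median -0.04, and 0.19 without WT replicate 1 and -0.19 without WT replicate 2). The largest difference with separate groups was that of Sod3, the secreted superoxide dismutase, with 6.74 and 6.90 in WT against 7.32 and 7.55 in KO (0.61 ± 0.16, adjusted p = 0.771, limma). Prdx4, a peroxiredoxin of the endoplasmic reticulum, gave 0.29 and Txn1 0.18, the latter with -0.08 at another detected probe.

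Of 7 transcription factors of phagocytes, all tested, 5 were higher and 2 lower (median 0.11, and 0.029 without WT replicate 1 and 0.36 without KO replicate 2). Of the higher ones Cebpa (0.45), above background on 1 WT array, entered the test only through KO. Of the lower ones Cebpe entered it only through WT. Spi1, which encodes PU.1, known to drive the genes of the oxidase subunits, read 6.96 and 7.23 in WT and 7.70 and 7.31 in KO (0.41 ± 0.20). Cebpb, a factor of monocytes and macrophages, gave 0.42 ± 0.14, and Cebpe, a factor of late granulocyte precursors, -0.60 ± 0.36, where KO replicate 2 (4.91) was not above background and KO replicate 1 (5.85) lay between the WT values. None passed (adjusted p = 0.771 for each, limma). Over all pathway lists, with each gene counted once, 51 of 85 genes were tested, 25 higher and 26 lower with a median of -9.6e-05. 0 passed. At an unadjusted p under 0.05 (limma) 2 were higher and 1 lower, where 3.31% and 2.78% of all tested probes were. The unmoderated test put 2 under 0.05, where 6.76% of all tested probes were, and 0 under the adjusted threshold. Of the 51, 10 had groups with KO above WT and 6 with KO below WT, where 19.4% and 18.5% of all tested probes did.

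**Figure D4:**
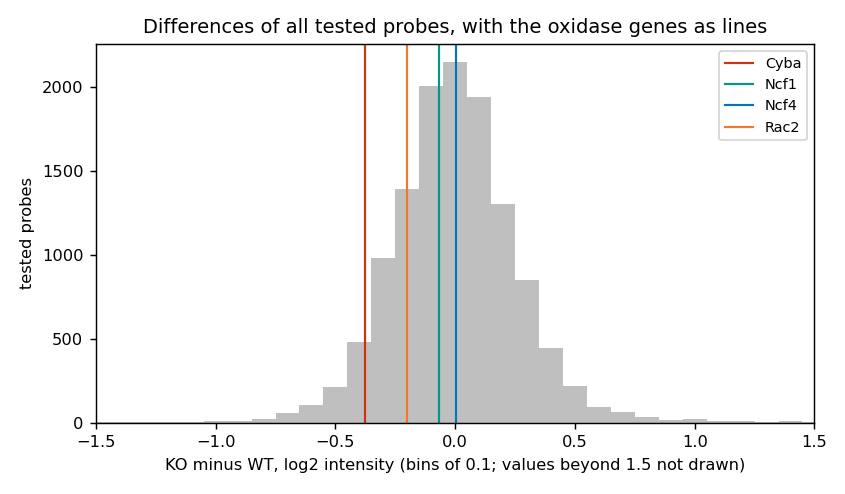
Histogram of the log2 difference, KO minus WT, over the 12493 tested probes in bins of 0.1, with the 4 detected oxidase genes as vertical lines. Ncf4 and Ncf1 lie near the centre, and Cyba lies in the lower flank, with 6.12% of the probes below it.

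Markers of cells that carry the oxidase differed in direction, and their values stand here beside those of Cyba. Of 10 listed genes of neutrophil precursor granules, 9 were above background in both groups. All 9 had both KO values under both WT values, as 18.5% of all tested probes did. At an unadjusted p under 0.05 (limma) 7 of the 9 were lower. Of all tested probes 2.78% were lower and 3.31% higher at that p. The median of the 9 was -1.56, and -0.76 without KO replicate 2 and -2.24 without KO replicate 1. Ms4a3, the other one, was above background in WT only, through which it entered the test. The summed intensity of the 10 was 6909 and 5555 in WT and 3921 and 1301 in KO, so that KO replicate 2 was the lowest, and Mpo gave -1.59 and Elane -1.39. Of 12 genes of mature neutrophils 7 were tested, with Mmp8 above background on no array and Il1r2 on 1 KO array only. The tested genes summed to 10467 to 12036 in WT and 5604 to 8705 in KO. At an unadjusted p under 0.05, 3 of these were lower, namely S100a8 (-0.95), S100a9 (-0.70) and Retnlg (-0.68), and 1 was higher, the receptor Fpr2 (0.56). Csf3r (0.20) and Cxcr2 (-0.03) had overlapping groups. The median of the list was -0.03, and -0.29 without KO replicate 1 and 0.04 without WT replicate 1. Monocyte genes (5 of 9 tested, Ccr2 not above background) summed to 2451 and 2613 in WT and 2221 and 2312 in KO. Of these 4 had lower means, among them Ly6c1 (-0.23) and Cx3cr1 (-0.35), and Cd14 was higher at 0.57, the only one at an unadjusted p under 0.05.

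Splenic macrophage genes were mixed, 5 with higher and 6 with lower means. Of 13 listed, 11 were tested (Cd5l not above background), with sums of 28105 and 27212 in WT against 33435 and 30630 in KO and a median of -0.01, which ran from -0.19 to 0.18 with an array left out. Both KO values lay above both WT values for 4 of them, Adgre1, Vcam1 (0.37), Slc40a1 (0.29) and Mrc1 (0.24), and below for 2, Spic (-0.35) and C1qa (-0.12). At an unadjusted p under 0.05, 2 were higher, Adgre1 and Vcam1, and 0 lower. Of all tested probes 19.4% had KO above WT without overlap and 18.5% below. At an unadjusted p under 0.05 (limma) 3.31% of all tested probes were higher and 2.78% lower. Adgre1, a surface receptor of macrophages, gave 0.83 at its brightest probe but 0.27 and 0.015 at the other detected probes. B cell genes (8 of 9 tested) summed to 15243 and 19769 in WT and to 12806 and 18330 in KO, overlapping, with Cd79a at -0.40 and Cd79b at -0.12. Their median was -0.17, and -0.47 without KO replicate 2 and 0.17 without KO replicate 1. T cell genes (9 of 11 tested, Cd8a not above background) summed to 11248 and 11344 in WT and 10608 and 10155 in KO, with Cd3d at -0.38 and Cd3e at 0.07. Of the 8 above background in both groups, 1 was lower at an unadjusted p under 0.05, Cd3g (-0.55). Lat, an adaptor of the T cell receptor, read 6.38 and 6.86 in WT and was not above background on either KO array, so that it entered the test only through WT. Plasma cell genes (4 of 7 tested) had a median of 0.29, which was 0.13 without WT replicate 1 and 0.46 without WT replicate 2, with Xbp1 at 0.49 and Irf4 at 0.09. Of 7 dendritic cell genes 3 were tested, with Itgax, Flt3 and Clec9a above background on no array and Xcr1 on 1 WT array only. For dendritic cell genes, NK cell genes (4 of 7) and erythroid genes (5 of 8) the array left out set the sign of the median. Zbtb46 gave 0.02 and Siglech -0.60 of the first list, and Klrb1c -0.07 and Klrd1 -0.02 of the second. Of the erythroid genes Hba-a1 gave 0.06 and Alas2 -0.39, and their median was 0.16 with all arrays, 1.28 without WT replicate 1 and -0.98 without WT replicate 2. None of the genes of these blood cell lists passed the adjusted threshold (limma). The part of any of these cells in the Cyba value was not tested. Between the KO arrays Cyba differed by 0.06, and the precursor granule sum was 3921 and 1301 on them. With 2 KO arrays, whether these values go together was not tested.

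The Cyba difference moved little when 1 array was left out, from -0.35 without KO replicate 2 to -0.40 without WT replicate 1, and both its unadjusted and its adjusted p were above 0.05 in all of these. For the other detected members the array left out decided the size or the sign of the difference.

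**Figure D5:**
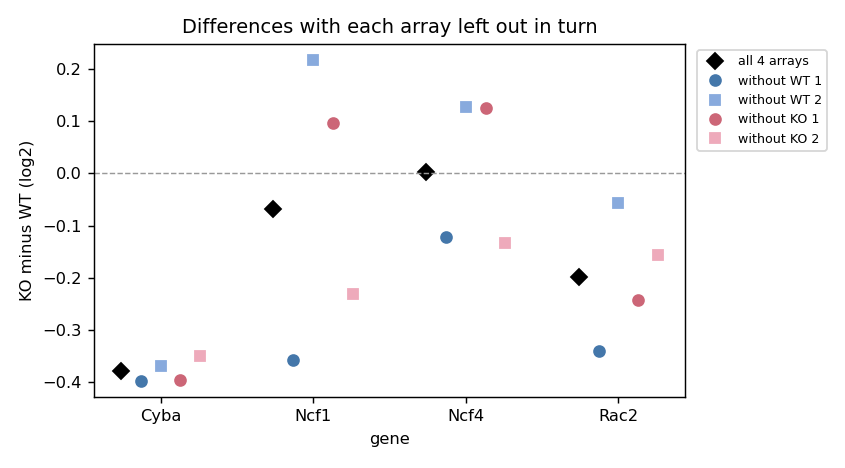
Log2 difference, KO minus WT, of the detected oxidase genes with all 4 arrays (black) and with each array left out in turn. Cyba stays between -0.40 and -0.35, Rac2 stays below 0, and Ncf1 and Ncf4 lie on both sides of 0.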

How the data were processed

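Probe intensity values (linear, neither normalized nor background-subtracted) were exported by the authors from Illumina GenomeStudio. The deposited detection columns hold a fraction near 1 for bright probes, whose ranks followed those of the signal (correlation 0.975 to 0.991), and were read as 1 minus the detection p. The authors' deposited table of log2 values matched a quantile normalization of the log2 signals for 25696 of 25697 probes to within 1e-06 (log2), with column medians of 6.82, so its scale was read as log2 without centring.

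Signals were corrected with normexp by nec of limma 3.58.1 in R 4.3.3, with negative controls inferred from the detection p and an offset of 16. The corrected intensities were quantile normalized over the arrays and then taken to log2. A probe was tested where either group had a detection p under 0.05 on both of its arrays, by lmFit and eBayes with 2 residual degrees of freedom, 5.04 in total, unpaired and two-sided, with Benjamini-Hochberg adjustment over all 12493. An exact permutation test of 2 arrays against 2 cannot go below p = 0.333 and was not used. Intervals are 95% from the moderated fit. The fit was tested on simulated data. In lists, the probe of highest mean stood for a gene. Sums are of normalized linear intensity over the tested genes. Of all probes, 23978 had 1 symbol, 0 several and 1719 none here, and 8 symbols were updated through accessions of GRCm38.p6, which served for names and gene order only. "At least" folds were taken against the higher of the lowest detected value and the probe's own.

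The members and lists were chosen with earlier results of these data known. Named were all members, Snd1, in each pathway list the 3 genes of smallest p, in each marker list the first 2 tested, and the 3 nearest profiles. One of the gene lists is not reported here. Genes outside this rule were named after their values were seen. The sources used here name no slide or scan batch. The samples are described as biological duplicates, and p-values rest on the spread between 2 arrays. Alternatives were no background correction, an offset of 50, median scaling, the authors' table, omission of the filter, a stricter filter (0.01 on every array), a prior with trend and robust fit, array weights, no moderation, the replicate number as a block, the mean of a gene's probes, and each array left out.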

Additional observations from a re-analysis of the deposited data

How the results depend on the processing

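No oxidase probe passed under any of the 14 alternatives to the fit, and Cyba stayed lower in all of them (-0.40 to -0.35, smallest adjusted p = 0.585). Rac2 stayed lower too, from -0.34 to -0.057. Ncf1 ran from -0.36 to 0.22 and Ncf4 from -0.13 to 0.13 when each array was left out in turn, and the sign turned for Ncf1 when WT replicate 2 (0.22) or KO replicate 1 (0.097) was left out, and for Ncf4 when WT replicate 1 (-0.12) or KO replicate 2 (-0.13) was. The median over the detected members ran from -0.35 (without WT replicate 1) to 0.035 (without WT replicate 2). It was -0.067 without a filter, where Cybb, with no signal above background, was counted in. Over all probes the number past the threshold was 2. It was 0 without background correction, with the authors' table, without a filter and without moderation, 4 with an offset of 50 and 8 with a trend and robust prior, and ran from 0 to 14 with an array left out, 14 without WT replicate 1 and 0 without each other array. The cause was not tested. Median scaling put the median of all tested probes at 0.035 in place of -0.0054. With the replicate number as a block 0 probes passed, and Cyba had an unadjusted p of 0.0484 and an adjusted p of 0.585. Its unadjusted p was above 0.05 with median scaling (0.0514) and with each array left out (0.0905 to 0.149). The labels share these numbers without naming pairs, and the correlation of the replicate differences of WT with those of KO was 0.188 across probes. The block changed no call of a member. Probes near the background, Cybb and the dim Ncf1 probe, limit what can be said of the complex, and 2 arrays per group limit the precision.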
